A study of Mus musculus with 6 samples.

Results

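Ribosome biogenesis genes were taken as the rows of the deposited expression table whose pathway annotation names ribosome biogenesis in eukaryotes, without rows that also carry the spliceosome term and without identifiers that start with Eif. The annotation marked 77 rows, of which Snu13 was left out for the first reason and Eif6 for the second. This gave 75 genes of 25572 in all. The rule itself reads the annotation and the identifiers, not the expression values. Muscle RNA from the hind limb, taken 3 days after surgery, was sequenced, and all 6 samples carried the treatment label HLI, which stands here for hind limb ischaemia, a reduced blood supply to the leg. The 3 mice of the HDCKO group were Hdc-/- and lacked histidine decarboxylase, the enzyme that makes histamine, and the 3 mice of the WT group were wild type, with 1 library per mouse. Strain, age and muscle are not given in the labels used here, and muscle without surgery was not analysed here. The study's title places the comparison in the setting of histamine, macrophages and vessel growth.

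Ribosomes are built mainly in the nucleolus. RNA polymerase I makes a long precursor RNA there, a large particle called the small subunit processome forms on it, and small nucleolar ribonucleoproteins (snoRNPs) modify its bases while nucleases cut it into the mature ribosomal RNAs. The pre-subunits are then carried through the nuclear pore by export factors and finished in the cytoplasm. Growing and dividing cells are known for high expression of these genes.

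Values are FPKM, fragments scaled by gene length and by the mapped fragments of the library. A fixed number of fragments is shared by all genes of a library, so a few very abundant transcripts lower the FPKM of the rest. For this reason each change is given on the deposited values and again after median-of-ratios scaling, which sets the typical gene level of the libraries equal. Changes are log2(FPKM + 0.5) in HDCKO minus WT, and a gene was said to have fallen or risen where the limma adjusted p over all 13288 tested genes was under 0.05. The median change of all tested genes was -0.50 on the deposited values and -0.04 after scaling, and each change below can be read against these levels.

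The libraries held an estimated 29300000 to 37400000 fragments. Values of replicates are given in the order 1, 2, 3. Hdc itself had 1.22, 2.46 and 2.52 FPKM in the HDCKO libraries and 7.49, 7.72 and 8.17 in the WT libraries (change -1.74, limma adjusted p = 0.0033), so transcript remained in the library of every HDCKO mouse; which part of the gene was deleted is not stated in the labels. Levels of cell type markers differed between the groups and among the HDCKO libraries. Summed over 12 muscle fibre markers, the level was 41600 to 76500 FPKM in HDCKO and 350 to 1340 in WT, with 12 of 12 higher in HDCKO. The sums for 12 cell cycle genes were 25.8, 52.4 and 209 FPKM in HDCKO and 292 to 355 in WT (10 of 12 lower), and those for 12 macrophage markers were 326, 951 and 2190 FPKM against 2460 to 3070 (6 of 12 lower). The 10 neutrophil markers all fell, from 2520 to 14400 FPKM in WT to 33.1 to 76.1 in HDCKO. Fibroblast markers (5 of 8 lower) summed to 1110 to 1810 FPKM in HDCKO and 3350 to 5460 in WT, and endothelial markers (5 of 8 lower) to 200 to 304 and 470 to 703. Satellite cell and myoblast markers (2 of 8 higher) summed to 33.2, 37.2 and 160 FPKM in HDCKO and 6.44 to 29.2 in WT. T and B cell markers (0 of 8 passed) summed to 0.561, 86.2 and 217 FPKM in HDCKO and 1.18 to 2.37 in WT, so HDCKO replicates 2 and 3 stood apart for lymphocyte transcripts. These marker counts are on the deposited values, on which 42.6% of all tested genes fell and 17.8% rose. After scaling 26.3% of all tested genes fell, as did 5 cell cycle, 4 macrophage, 5 fibroblast and 4 endothelial markers. The counts for fibre, neutrophil, myoblast and lymphocyte markers were the same with both scalings. The macrophage markers that did not pass (Adgre1, Csf1r, Lyz2, C1qa, C1qb and C1qc) overlapped between the groups. No marker was at 0 in all libraries of a group. The part of these differences in the results below was not tested, and in bulk muscle fewer cells of a type cannot be told apart from less RNA per cell.

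Ribosome biogenesis genes were lower in HDCKO muscle more often than higher, and the 6 largest decreases were those of the snoRNP proteins Nop58, Nhp2 and Fbl and the export factors Nxt1, Xpo1 and Ran. Of the 75 genes, 69 reached the mean of 0.5 FPKM needed for the test. On the deposited values 42 of the 69 fell and 3 rose, or 60.9% and 4.35%, where 42.6% of all tested genes fell and 17.8% rose. After median-of-ratios scaling 22 fell and 6 rose, or 31.9% and 8.70%, where 26.3% of all tested genes fell and 26.3% rose. The share that fell after scaling was therefore near the background, while the share that rose was below it; the difference from other genes was not tested. All 22 had also fallen on the deposited values, and the 3 that rose there rose with both scalings. The median change of the members was -0.71 on the deposited values and -0.22 after scaling. The HDCKO and WT values did not overlap for 50 members lower in HDCKO (72.5%, against 51.4% of all tested genes) and for 3 higher (21.2% of all tested genes were higher in this way). After scaling these counts were 30 lower (43.5%, against 34.7%) and 12 higher (32.4% of all tested genes). Leaving out HDCKO replicate 2 lowered the 42 to 16, and leaving out a WT replicate lowered it to 21, 18 and 21. The 22 became 10, 12, 13 and 10 in the same cases. The 6 that rose after scaling were 3 without HDCKO replicate 1, 2 without HDCKO replicate 2, 14 without HDCKO replicate 3, and 2, 3 and 3 without a WT replicate. Of the 28 members that fell or rose after scaling, 12 kept that call whichever of the 6 libraries was left out: Nop58, Nop56, Nhp2, Gar1, Wdr75, Riok1, Gnl3, Ran, Xpo1, Nxt1, Rpp25l and Pop5. The scaled calls of the other 16 were lost without at least HDCKO replicate 2.

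**Figure D1:**
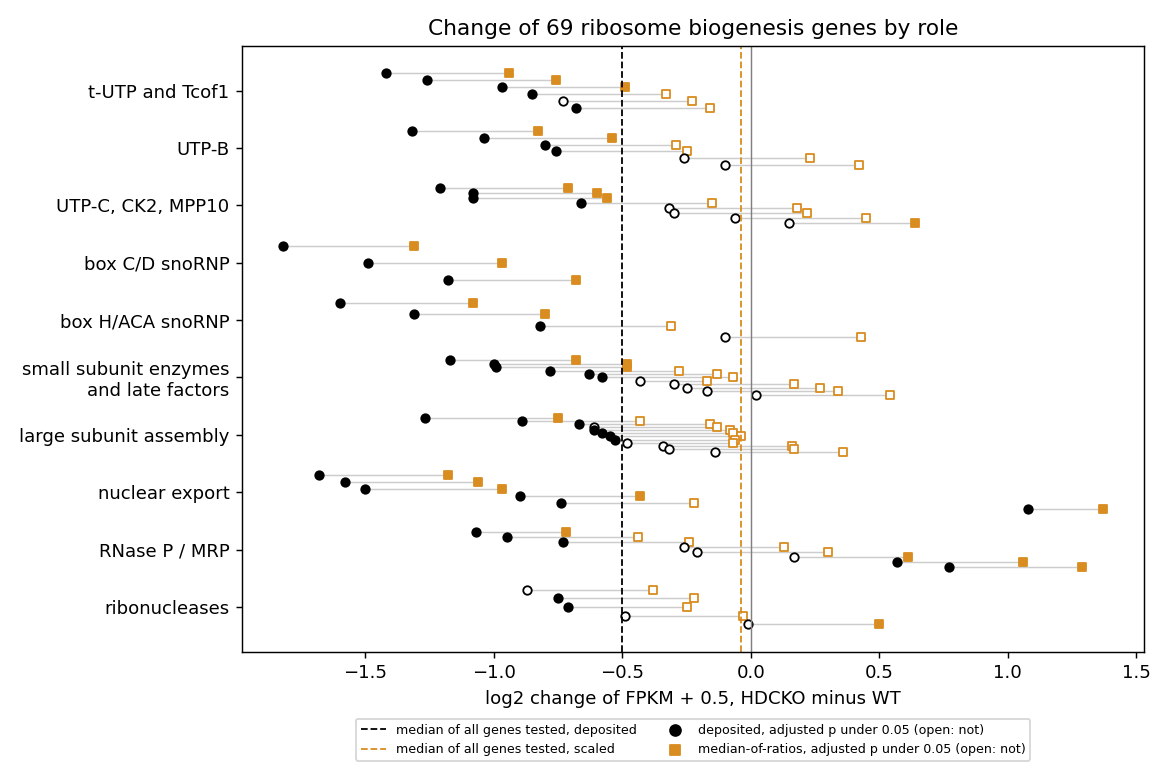
Change of each of the 69 tested members (log2 of FPKM + 0.5, HDCKO minus WT), grouped by role; black circles are deposited values, orange squares are values after median-of-ratios scaling, filled symbols passed the test, and dashed lines mark the medians of all tested genes at -0.50 and -0.04. Nop58, Nxt1, Nhp2, Xpo1, Ran and Fbl lie furthest to the left under both scalings, and RNase P and MRP proteins lie on both sides of 0.

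The members differed among HDCKO libraries as well. Their median level, in log2(FPKM + 0.5), was 2.85, 3.02 and 3.42 in the HDCKO libraries and 3.94, 3.85 and 3.94 in the WT libraries. HDCKO replicate 3 was nearest to WT and had the highest HDCKO value for 55 of 69 members (79.7%, against 67.9% of all tested genes). After scaling the medians were 3.39, 3.29 and 3.34 in HDCKO and 3.70, 3.56 and 3.67 in WT. Most of the spread among HDCKO libraries was no longer seen, and the groups still did not overlap. All tested genes had HDCKO medians of 2.24, 2.54 and 2.92 on the deposited values and 2.76, 2.8 and 2.84 after scaling. The spread and its loss were therefore not particular to the members, because the scaling sets typical gene levels equal. The 69 members together held 666, 770 and 992 FPKM in HDCKO and 1390, 1410 and 1360 FPKM in WT. HDCKO replicate 3 was also the HDCKO library with the highest sums of cell cycle, macrophage, myoblast and lymphocyte markers and the lowest of fibre markers; the part of these markers was not tested.

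**Figure D2:**
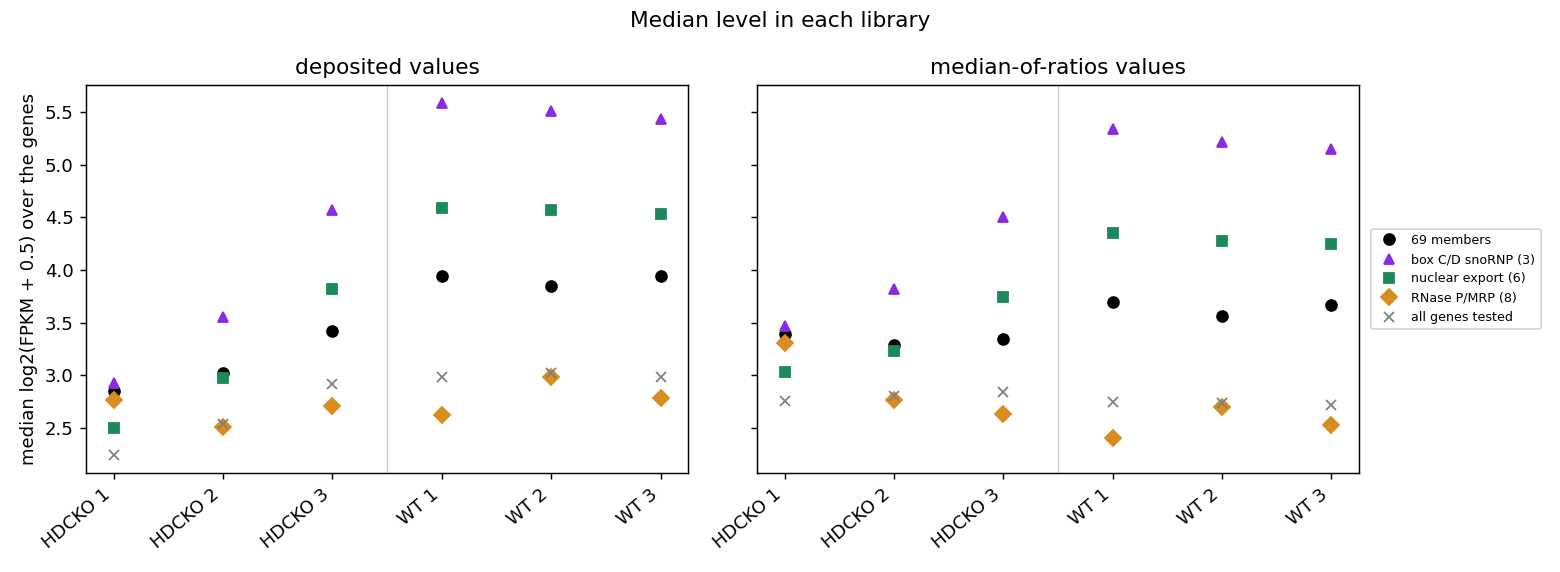
Median log2(FPKM + 0.5) in each of the 6 libraries for the 69 members, for 3 groups of them by role and for all tested genes, on deposited values (left) and after median-of-ratios scaling (right). The members' median is lower in each HDCKO library than in each WT library in both panels. The widest gap is that of the 3 tested box C/D snoRNP members, which do not include Snu13.

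The box C/D snoRNP places methyl groups on ribosomal RNA. All 3 of its tested members on the list fell with both scalings, where 42.6% and 26.3% of all tested genes fell. Snu13, a further protein of this particle, was left out by the rule. It fell on the deposited values (-0.65, limma adjusted p = 0.0171) but not after scaling (-0.12, limma adjusted p = 0.447). Nop58, a core scaffold protein that holds the guide RNA, had 7.15, 11.2 and 23.3 FPKM in HDCKO and 47.6, 45.1 and 42.5 in WT. Every HDCKO library was below every WT library, and the HDCKO mean was 30.8% of the WT mean (13.9 ± 8.43 against 45.1 ± 2.51, SD, n = 3 each). Its change was -1.82 (SE 0.40, limma adjusted p = 0.0121), the largest decrease among the members, and -1.31 after scaling (limma adjusted p = 0.0104). Fbl, the methyltransferase fibrillarin, had 11.4, 21.1 and 39.8 FPKM in HDCKO and 62.2, 58.0 and 61.5 in WT. The groups did not overlap, but HDCKO values spread widely, and the change of -1.49 (limma adjusted p = 0.0254; -0.97 and 0.0319 after scaling) no longer passed without HDCKO replicate 2 or without any WT replicate. Nop56, the partner scaffold of Nop58, had 4.86, 6.63 and 9.72 FPKM in HDCKO and 16.7, 16.1 and 15.4 in WT (change -1.18, limma adjusted p = 0.0103; -0.68 after scaling, limma adjusted p = 0.0095). Nop56, Nop58 and, among the large subunit factors, Gnl3 share exon bases with small nucleolar RNA genes on the same strand, and the labels do not say how reads of these were counted. Fbll1, a fibrillarin relative, was listed at 0 in 5 libraries and was not tested.

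The box H/ACA snoRNP turns uridines of ribosomal RNA into pseudouridines, and its 4 proteins did not change alike. Nhp2, which binds the guide RNA, had 15.8, 17.8 and 33.6 FPKM in HDCKO and 66.4, 68.3 and 61.2 in WT, or 34.3% of the WT mean (change -1.60, SE 0.29, limma adjusted p = 0.0070; -1.08 after scaling, limma adjusted p = 0.0055). Gar1, a protein that helps release the modified RNA, fell from 23.1, 22.2 and 21.6 FPKM in WT to 5.98, 7.95 and 13.6 in HDCKO (change -1.31, limma adjusted p = 0.0119; -0.80 after scaling, limma adjusted p = 0.0106). Both were separate between the groups in every library. Dkc1, the pseudouridine synthase dyskerin, had 7.68, 8.75 and 13.2 FPKM against 18.1, 18.1 and 16.1; it fell on the deposited values (change -0.82, limma adjusted p = 0.0206) but not after scaling (-0.31, limma adjusted p = 0.0792), nor without HDCKO replicate 2 or any WT replicate. Nop10, a small protein of the same core, had 52.4, 52.2 and 50.9 FPKM in HDCKO and 56.9, 59.9 and 50.5 in WT, values that overlapped (change -0.10, limma adjusted p = 0.527; 0.43 after scaling, limma adjusted p = 0.121).

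**Figure D3:**
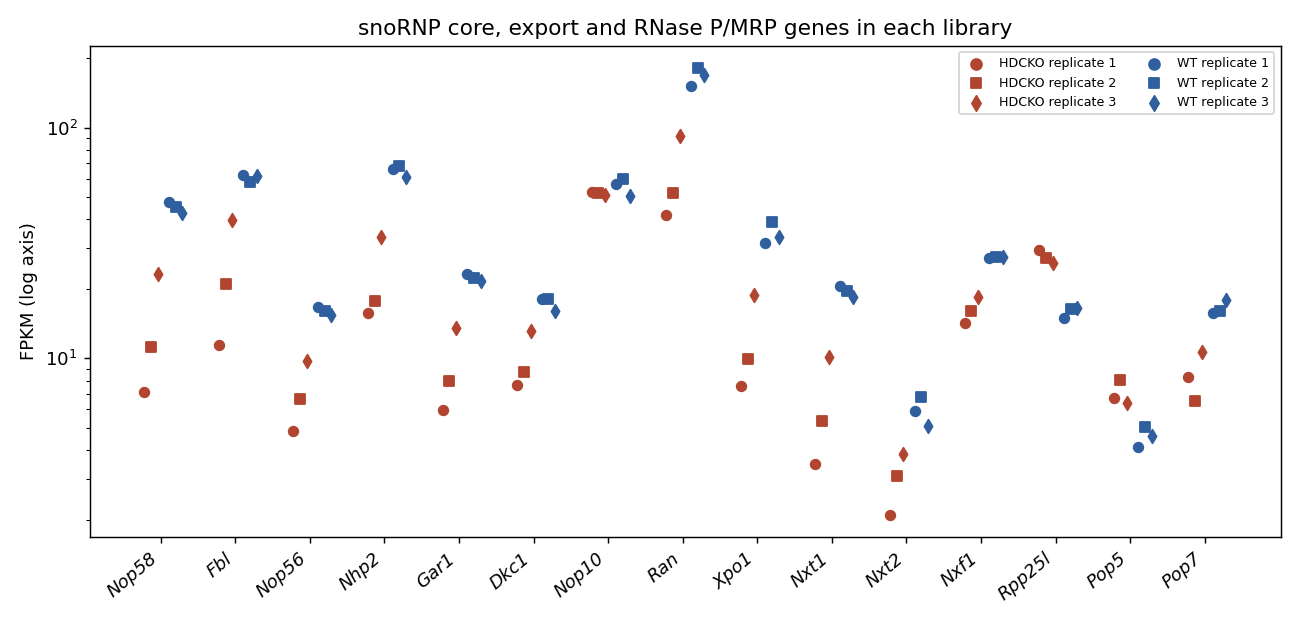
FPKM (log axis) of 15 members in each library, with HDCKO in red and WT in blue and 1 symbol shape per replicate number. Nop58, Nhp2, Ran, Xpo1 and Nxt1 lie lower in all HDCKO libraries, Nop10 overlaps between the groups, and Rpp25l and Pop5 lie higher in all HDCKO libraries.

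The small subunit processome is assembled from modules, of which the t-UTP module is bound first and is linked to polymerase I transcription. In that group 5 of 6 members fell, 3 of them after scaling too, where 42.6% and 26.3% of all tested genes fell. The median changes of the group were -0.91 and -0.41. Wdr75 had 5.72, 6.95 and 10 FPKM in HDCKO and 18.8, 18.6 and 17.7 in WT (change -1.26, SE 0.21, limma adjusted p = 0.0056; -0.76 after scaling, limma adjusted p = 0.0046). Heatr1 had 2.43, 3.77 and 6.92 FPKM in HDCKO and 10.6, 11.8 and 12.5 in WT (change -1.42, limma adjusted p = 0.0150; -0.94 after scaling). Neither gene overlapped between the groups, and Heatr1 lost its call without HDCKO replicate 2, WT replicate 2 or WT replicate 3. Utp15 fell with both scalings (-0.97 and -0.49, limma adjusted p = 0.0219 and 0.0349), a scaled call that held only without HDCKO replicate 3. Utp4 fell on the deposited values (-0.85, limma adjusted p = 0.0110) but not after scaling (-0.33, limma adjusted p = 0.0831). Tcof1, the treacle protein that recruits polymerase I factors, did not pass: HDCKO replicate 3, at 15.1 FPKM, lay within the WT range of 13.2 to 16.0, while HDCKO replicates 1 and 2 had 5.24 and 7.07 (change -0.73, limma adjusted p = 0.128).

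In the UTP-B module 4 of 6 members fell and 2 kept their calls after scaling (66.7% and 33.3%, against 42.6% and 26.3% of all tested genes). The median changes were -0.78 and -0.27. Utp18 had 3.36, 5.60 and 9.12 FPKM in HDCKO and 15.6, 15.0 and 13.7 in WT (change -1.32, limma adjusted p = 0.0172; -0.83 after scaling), and Wdr3 changed by -1.04 (limma adjusted p = 0.0188; -0.54 after scaling). Both lost their calls without HDCKO replicate 2 or any WT replicate. Tbl3 fell on the deposited values (-0.76, limma adjusted p = 0.0163) but not after scaling (-0.25, limma adjusted p = 0.116), and that call was lost without HDCKO replicate 2, WT replicate 2 or WT replicate 3. Utp6, of the same module, did not pass (-0.10, limma adjusted p = 0.557).

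Of 8 UTP-C, casein kinase 2 and MPP10 proteins 4 fell, 3 of them after scaling, where 42.6% and 26.3% of all tested genes fell. After scaling 1 of the 8 rose, where 26.3% of all tested genes rose. The median changes of the 8, -0.49 and 0.02, were near those of all tested genes (-0.50 and -0.04). Rrp7a, a UTP-C protein, had 12.4, 14.3 and 19.4 FPKM in HDCKO and 31.6, 30.8 and 35.0 in WT, with no overlap (change -1.08, SE 0.19, limma adjusted p = 0.0065; -0.56 after scaling, limma adjusted p = 0.0117). Imp4, an MPP10 partner, fell by 1.21 (limma adjusted p = 0.0153; -0.71 after scaling) and lost its call without HDCKO replicate 2, WT replicate 2 or WT replicate 3. Casein kinase 2, a kinase with many substrates outside the nucleolus, has 2 catalytic subunits encoded by Csnk2a1 and Csnk2a2. Csnk2a2 had 2.45, 2.65 and 4.63 FPKM in HDCKO and 6.96, 7.28 and 7.22 in WT (change -1.08, limma adjusted p = 0.0118; -0.60 after scaling, limma adjusted p = 0.0154). Csnk2a1 had 8.11, 7.65 and 8.08 FPKM in HDCKO and 7.89, 6.39 and 7.20 in WT, overlapping groups on the deposited values (0.15, limma adjusted p = 0.379) but a rise after scaling (0.64, limma adjusted p = 0.0339). The scaled call of Csnk2a2 was lost without HDCKO replicate 2 or any WT replicate, and that of Csnk2a1 when any library but HDCKO replicate 3 was left out.

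Of 11 enzymes and late factors of the small subunit 6 fell, 3 with both scalings (median changes -0.58 and -0.13). These were 54.5% and 27.3%, against 42.6% and 26.3% of all tested genes, so the scaled share was near the background. Riok1, an atypical kinase of late maturation, had 3.21, 4.37 and 6.31 FPKM in HDCKO and 10.7, 11 and 10.4 in WT (change -1.17, SE 0.24, limma adjusted p = 0.0093; -0.68 after scaling, limma adjusted p = 0.0081). Fcf1, a processome protein with a nuclease fold, had 18.6, 24.0 and 30.7 FPKM against 48.2, 45.9 and 51.4 (change -1.0, limma adjusted p = 0.0096; -0.48 after scaling, limma adjusted p = 0.0186). Neither gene overlapped between the groups. Utp14a, an activator of the processome's helicase, fell by 0.99 (limma adjusted p = 0.0169; -0.48 after scaling, limma adjusted p = 0.0246), without a call when HDCKO replicate 2 or any WT replicate was left out. Rcl1 (-0.78, limma adjusted p = 0.0137) and Riok2 (-0.63, limma adjusted p = 0.0147) fell on the deposited values but not after scaling (-0.28 and -0.13, limma adjusted p = 0.139 and 0.514). Both lost their calls without HDCKO replicate 2 or WT replicate 1, and Riok2 also without WT replicate 2. The scaled call of Fcf1 was lost without HDCKO replicate 2, WT replicate 1 or WT replicate 3. Ak6, an adenylate kinase of the nucleus, shares 55.2% of its exon bases with Taf9 on the same strand, so its value is uncertain.

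The annotated large subunit factors, mostly GTPases and ATPases that remodel the particle, had small median decreases. The 29 large subunit factors outside the annotation, given further below, had medians of -0.80 and -0.30. Of the 12 annotated ones, 7 fell on the deposited values but 1 after scaling (58.3% and 8.33%, against 42.6% and 26.3% of all tested genes). Their median changes, -0.56 and -0.07, were near the medians of all tested genes. The member that kept its call was Gnl3, nucleostemin, a GTPase known from stem and progenitor cells. Gnl3 had 13.4, 17.4 and 21.6 FPKM in HDCKO and 45.2, 42.7 and 38.7 in WT (change -1.27, SE 0.20, limma adjusted p = 0.0045; -0.75 after scaling, limma adjusted p = 0.0057), with the limit given above for reads of the small nucleolar RNA genes it hosts. Its relatives Gnl2 (-0.34, limma adjusted p = 0.0709; 0.16 after scaling) and Gnl3l (-0.14, limma adjusted p = 0.347; 0.36 after scaling) did not pass under either scaling. Nmd3, the adaptor that carries the large subunit to its exporter, changed by -0.67 (limma adjusted p = 0.0198; -0.16 after scaling) and Sbds, which helps release a joining block in the cytoplasm, by -0.61 (limma adjusted p = 0.0255; -0.08 after scaling), and neither passed after scaling. Leaving out HDCKO replicate 2 or any WT replicate ended both calls on the deposited values.

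Export factors carry pre-subunits and messenger RNA out of the nucleus, and they serve many other cargoes. Of 9 genes in this role 6 were tested, 5 fell and 1 rose, and after scaling 4 fell and 1 rose (median changes -1.20 and -0.70). The shares that fell were 83.3% and 66.7%, against 42.6% and 26.3% of all tested genes. The share that rose was 16.7% with both scalings, against 17.8% and 26.3%. Ran, the GTPase that gives nuclear transport its direction, had 42.0, 52.2 and 92.1 FPKM in HDCKO and 152, 181 and 169 in WT, or 37.1% of the WT mean (change -1.50, SE 0.30, limma adjusted p = 0.0094; -0.97 after scaling, limma adjusted p = 0.0077). Xpo1, the exporter of both pre-subunits, had 7.55, 9.97 and 18.9 FPKM in HDCKO and 31.7, 39.0 and 33.6 in WT (change -1.58, SE 0.33, limma adjusted p = 0.0103; -1.06 after scaling, limma adjusted p = 0.0084). Nxt1, the small partner of the export receptor Nxf1, had 3.48, 5.33 and 10.1 FPKM in HDCKO and 20.6, 19.5 and 18.5 in WT (change -1.68, SE 0.35, limma adjusted p = 0.0102; -1.18 after scaling, limma adjusted p = 0.0083). In all 3 genes the highest HDCKO library, replicate 3, was still below the lowest WT library. Nxf1 fell on the deposited values (-0.74, limma adjusted p = 0.0081) but not after scaling (-0.22, limma adjusted p = 0.180), and Nxt2 was just within the threshold after scaling (-0.43, limma adjusted p = 0.0498; -0.90 on the deposited values, limma adjusted p = 0.0184). The call of Nxt2 on the deposited values was lost without HDCKO replicate 2, WT replicate 1 or WT replicate 2, and its scaled call whichever of the 6 libraries was left out.

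Rasl2-9, a gene related to Ran and annotated to the same pathway, went the other way. It had 1.47, 1.14 and 0.790 FPKM in HDCKO and 0.155, 0.401 and 0.240 in WT, with no overlap (change 1.08, SE 0.22, limma adjusted p = 0.0099; 1.37 after scaling, limma adjusted p = 0.0133). The scaled call was lost without HDCKO replicate 2 or WT replicate 1. From the gene length of 1013 bases and the estimated depth, these values stand for about 51, 34 and 30 fragments in HDCKO and 5, 15 and 9 in WT. The coding sequences of the 2 genes, both 648 bases without the stop codon in the GENCODE annotation of GRCm39, are 94.6% identical, at 613 of 648 positions, and no label says how a read that matches both was counted. The value of Rasl2-9 is therefore uncertain. The first 120 bases of both coding sequences are shown because they let the likeness be seen directly; capitals mark the 8 positions at which they differ.
Ran: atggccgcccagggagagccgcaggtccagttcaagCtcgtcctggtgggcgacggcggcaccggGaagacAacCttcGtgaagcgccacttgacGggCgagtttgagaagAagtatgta
Rasl2-9: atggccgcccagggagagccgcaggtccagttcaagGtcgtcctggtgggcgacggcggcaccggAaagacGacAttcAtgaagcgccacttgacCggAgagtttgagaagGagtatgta
Of the other relatives, Utp14b was 73.3% identical to Utp14a and Csnk2a2 67.7% identical to Csnk2a1 over their aligned coding sequences. The other export genes, Nxf2, Nxf7 and 1700009N14Rik, had at most 0.251 FPKM in any library and were not tested.

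RNase P and RNase MRP share most of their proteins and cut transfer RNA and ribosomal RNA precursors, and their genes moved both ways. Of 9 genes 8 were tested. On the deposited values 3 fell and 2 rose (37.5% and 25.0%, against 42.6% and 17.8% of all tested genes). After scaling 1 fell and 3 rose (12.5% and 37.5%, against 26.3% each). The median changes were -0.23 and 0.22. Rpp25l had 29.5, 27.2 and 26.0 FPKM in HDCKO and 15.0, 16.3 and 16.5 in WT, or 173% of the WT mean, with narrow spread in both groups (change 0.77, SE 0.13, limma adjusted p = 0.0051; 1.29 after scaling, limma adjusted p = 0.0061). Pop5 had 6.72, 8.08 and 6.40 FPKM in HDCKO and 4.12, 5.02 and 4.60 in WT (change 0.57, limma adjusted p = 0.0218; 1.06 after scaling, limma adjusted p = 0.0100), and its call on the deposited values was lost without HDCKO replicate 2, WT replicate 1 or WT replicate 3. Pop7, by contrast, had 8.33, 6.51 and 10.7 FPKM in HDCKO and 15.8, 16.1 and 17.9 in WT (change -0.95, limma adjusted p = 0.0105; -0.44 after scaling, limma adjusted p = 0.0834). Pop1, the largest protein of the complex, fell with both scalings, from 1.97, 2.63 and 1.98 FPKM in WT to 0.346, 0.852 and 1.31 in HDCKO (-1.07 and -0.72, limma adjusted p = 0.0247 and 0.0456). Rpp40 passed only after scaling (0.61, limma adjusted p = 0.0492; 0.17 on the deposited values, limma adjusted p = 0.330). The scaled calls of Pop1 and Rpp40 were lost when any library but HDCKO replicate 3 was left out. Rpp25, the relative of Rpp25l, had at most 0.0698 FPKM and was not tested.

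Of 5 tested ribonucleases that trim precursors or clear fragments, 2 fell on the deposited values, a share near the 42.6% of all tested genes. After scaling 0 fell and 1 rose, where 26.3% of all tested genes fell and 26.3% rose. The median changes of the 5 were -0.71 and -0.22. Rexo2, an exonuclease for short RNA fragments, had 31.3, 34.5 and 41.6 FPKM in HDCKO and 59.6, 57.0 and 63.6 in WT (change -0.75, limma adjusted p = 0.0103; -0.22 after scaling, limma adjusted p = 0.196), a call lost without HDCKO replicate 2. Rexo1 changed by -0.71 (limma adjusted p = 0.0242; -0.25 after scaling, limma adjusted p = 0.142), and its call on the deposited values was lost when any library but HDCKO replicate 3 was left out. Xrn2, the nuclear exonuclease that trims precursor ends, had 2.51 and 4.64 FPKM in HDCKO replicates 1 and 2 but 9.71 in HDCKO replicate 3, above the 9.16 to 9.54 of WT, and did not pass (-0.87, limma adjusted p = 0.119). Xrn1, the cytoplasmic enzyme, likewise had its highest value in HDCKO replicate 3 (2.25, 2.88 and 5.14 FPKM against 4.52, 4.81 and 4.93; limma adjusted p = 0.166). Drosha, best known for cutting microRNA precursors, had 10.7, 10 and 12.6 FPKM in HDCKO and 11.4, 10.4 and 11.6 in WT (-0.01, limma adjusted p = 0.962) and rose after scaling (0.50, limma adjusted p = 0.0359), a call lost when any library but HDCKO replicate 3 was left out.

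Ratios of 2 members within a library do not depend on how libraries are scaled. Of 12 ratios, 7 were between listed relatives and 5 between subunits or relatives chosen after their values were seen. Among the 7 listed pairs the HDCKO and WT ratios did not overlap in 6. Each of these had exact two-sided permutation p = 0.1, the smallest that 3 against 3 libraries allow, and p = 0.117 after adjustment over the 7. Gnl3 is shared by its pairs with Gnl3l and Gnl2. The share of other gene pairs with separate ratios was not computed, so the count of 6 has no background. On the deposited values the groups did not overlap for 51.4% of all tested genes, lower in HDCKO, and for 21.2%, higher in HDCKO. The 5 ratios chosen after their values were seen are given as descriptions, with no test. For these, the log2 ratio of Nhp2 to Nop10 was -1.73, -1.56 and -0.60 in HDCKO and 0.22, 0.19 and 0.28 in WT, a difference of -1.52 within the same snoRNP core. The ratio of Pop7 to Rpp25l differed by -1.78, that of Utp18 to Utp6 by -1.31 and that of Imp4 to Imp3 by -0.97. The ratio of Ran to Rasl2-9 differed by -3.67, with the uncertainty given for that pair. Among the listed pairs, the ratio of Csnk2a2 to Csnk2a1 was -1.72, -1.53 and -0.80 in HDCKO and -0.18, 0.19 and 0.00 in WT (difference -1.36), with every HDCKO library below every WT library. The ratio of Gnl3 differed by -1.15 against Gnl3l and by -0.93 against Gnl2, and the ratios of Nxt1 to Nxt2, Riok1 to Riok2 and Xrn2 to Xrn1 by -0.76, -0.60 and -0.39. For Xrn2 to Xrn1 the groups nearly touched, at 0.92 in HDCKO replicate 3 and 0.93 in the lowest WT library. The listed pair whose ratios overlapped was Utp14a to Utp14b (difference -0.13, exact permutation p = 0.8). Utp14b was low, at 0.378, 0.212 and 0.784 FPKM in HDCKO and 0.595, 0.789 and 0.890 in WT. It shares 9.3% of its exon bases with Acsl3 on the same strand, so this ratio is uncertain.

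**Figure D4:**
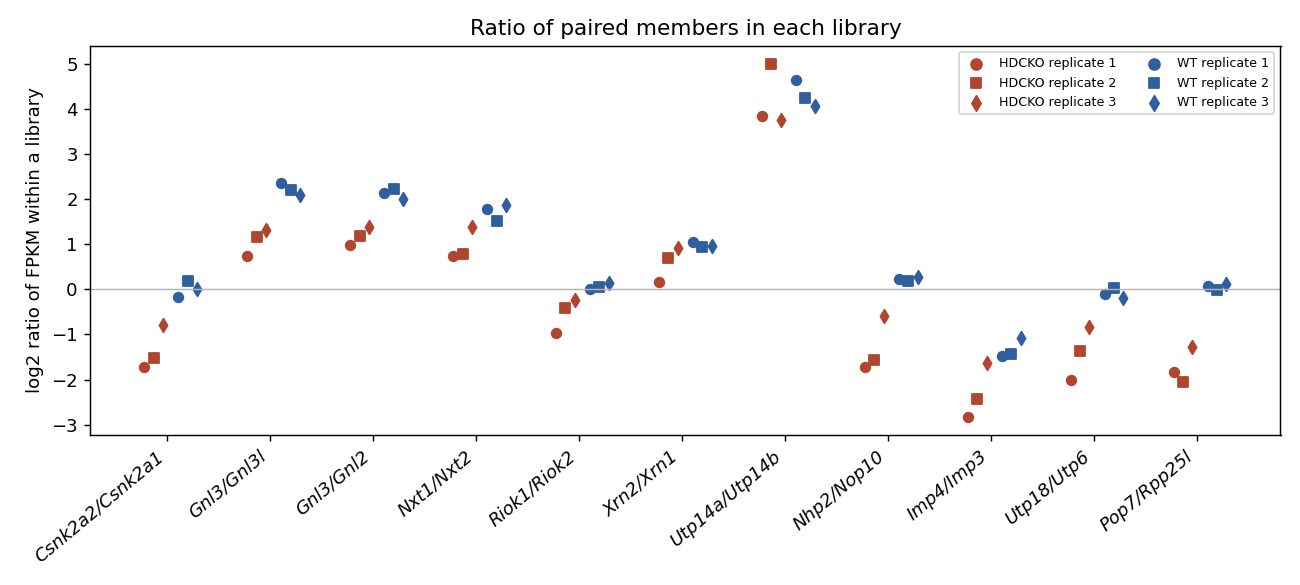
Log2 ratio of the FPKM of 2 members within each library for 11 of the 12 pairs (Ran to Rasl2-9 is not drawn), with HDCKO in red and WT in blue. The 3 HDCKO ratios lie below the 3 WT ratios for 10 of the 11 pairs drawn, 4 of which were chosen for their values. Utp14a to Utp14b overlaps. Which gene of a pair is written first sets the direction, so the shared direction is not a result.

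Other genes of the pathway that the annotation does not mark were taken from a list of 108 genes in the table, of which 107 were tested. On the deposited values 68 fell and 2 rose (63.6% and 1.87%, against 42.6% and 17.8% of all tested genes; median -0.67), and after scaling 32 fell and 10 rose (29.9% and 9.35%, against 26.3% each; median -0.16). Without HDCKO replicate 2 the 68 became 15 and the 2 became 0, and without WT replicates 1, 2 and 3 the 68 became 19, 23 and 21 and the 2 became 0 each time. The scaled 32 became 21 and 8 without HDCKO replicates 1 and 2 and 9, 13 and 8 without a WT replicate, and the scaled 10 became 2 without HDCKO replicate 2 and 3, 2 and 3 without a WT replicate. The 2 that rose on the deposited values were Polr2l, a small subunit shared by the RNA polymerases (0.52, limma adjusted p = 0.0162), and Rrp12 (0.49, limma adjusted p = 0.0293), both chosen after their values were seen. Of 21 genes of polymerase I and its factors 10 fell and 1 rose (47.6% and 4.76%, against 42.6% and 17.8% of all tested genes). After scaling 5 fell and 4 rose (23.8% and 19.0%, against 26.3% each), so the shares that fell were near the background. The 5 were Polr1b, Polr1c, Polr1e, Polr2h and Taf1d, and the 4 were Polr1a, Polr1d, Polr2l and Rrn3. Polymerase I itself had subunits among both. Polr1b, its second largest subunit, fell by 0.90 (limma adjusted p = 0.0123; -0.44 after scaling, limma adjusted p = 0.0272), and Taf1d, a subunit of its promoter selectivity factor, had 2.68, 3.22 and 6.62 FPKM in HDCKO and 14.1, 11.9 and 12.8 in WT (change -1.61, limma adjusted p = 0.0084; -1.13 after scaling). Polr1a, the largest subunit, and the initiation factor Rrn3 did not pass on the deposited values (both 0.05, limma adjusted p = 0.775 and 0.720) and rose after scaling (0.55 and 0.57, limma adjusted p = 0.0303 and 0.0356). Ubtf, which opens ribosomal DNA chromatin, fell on the deposited values (-0.84, limma adjusted p = 0.0187) but not after scaling (-0.33, limma adjusted p = 0.0514). The calls of Polr1b and Ubtf were lost without HDCKO replicate 2, and that of Ubtf also without any WT replicate.

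Genes of nucleolar proteins and chaperones fell in 15 of 18 cases, and in 6 after scaling (83.3% and 33.3%, against 42.6% and 26.3% of all tested genes). Their medians were -0.73 and -0.22. Npm1, the histone and ribosome chaperone nucleophosmin, had 57.7, 87.2 and 209 FPKM in HDCKO and 360, 368 and 349 in WT (change -1.81, limma adjusted p = 0.0180; -1.28 after scaling, limma adjusted p = 0.0185), and nucleolin, Ncl, had 19.7, 25.9 and 51.6 against 80.6, 81.3 and 73.8 (-1.38, limma adjusted p = 0.0177; -0.86 after scaling). Both lost their calls without HDCKO replicate 2 or any WT replicate. Rrp1b (-1.26, limma adjusted p = 0.0087) fell under both scalings (-0.80 after scaling). Of 29 large subunit factors outside the annotation 20 fell, and 13 after scaling, where 42.6% and 26.3% of all tested genes fell. Of these factors 1 rose after scaling, where 26.3% of all tested genes rose. The smallest p-values were those of Ebna1bp2 (-1.10, limma adjusted p = 0.0048), Senp3 (-1.15, limma adjusted p = 0.0082) and the methyltransferase Nop2 (-1.22, limma adjusted p = 0.0083), and the largest decrease was that of Ppan (-1.50, limma adjusted p = 0.0132; -0.99 after scaling). Of 21 other small subunit factors 12 fell and 1 rose (57.1% and 4.76%, against 42.6% and 17.8% of all tested genes). After scaling 1 fell and 3 rose (4.76% and 14.3%, against 26.3% each). The one that fell with both scalings was Wdr46 (-1.21, limma adjusted p = 0.0182; -0.70 after scaling), a call lost without HDCKO replicate 2 or any WT replicate, and those that rose after scaling were Rrp12 (0.96), Nol7 (0.83) and Krr1 (0.51). Exosome subunits fell in 6 of 11 cases and in 4 after scaling (54.5% and 36.4%, against 42.6% and 26.3%), among them Exosc2 (-1.03, limma adjusted p = 0.0126). Of 7 tested genes of the Myc family 5 fell, 3 of them after scaling too (71.4% and 42.9%, against 42.6% and 26.3%). After scaling 2 rose (28.6%, against 26.3%). Myc, a transcription factor known to drive ribosome biogenesis genes, had 3.79, 7.02 and 14.7 FPKM in HDCKO and 39.1, 34.2 and 36.2 in WT, with no overlap (change -2.23, limma adjusted p = 0.0089; -1.72 after scaling, limma adjusted p = 0.0070). Its relatives Mxd1, a partner of Max that opposes Myc, and Mnt fell as well (-4.08 and -1.10, limma adjusted p = 0.0020 and 0.0057; -3.60 and -0.64 after scaling).

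Promoters were described because Myc, known to drive ribosome biogenesis genes, binds the E-box CACGTG. Whether the members change together, and any part of Myc in their changes, was not tested. RefSeq windows of GRCm38.p6 from 250 bases before to 50 after a gene's start were at hand for 64 of the 75 members. CACGTG stood in a window of 14 members (21.9%), against 8.1% of all 27025 genes with a RefSeq window and 11.6% of those tested here. CCGGAAG, the core bound by ETS factors, stood in 21 members (32.8%, against 9.9% and 19.2%), TCGCGA in 5 (7.8%, against 2.9% and 5.5%) and GCATGC in 9 (14.1%, against 8.9% and 10.9%), each counted on both strands; none of the 4 motifs contains another. Members with and without CACGTG had similar changes. Of the 13 tested members that held it, 8 fell on the deposited values and 4 after scaling (median change -0.75), and of the 45 tested members without it, 28 and 15 did (median change -0.66). An E-box before the gene start was also held by Rasl2-9 (at -17), which rose with both scalings. Utp14b (at -63), which did not pass, and Nxf2, which was not tested, held one there too. The windows below surround the E-box of the 6 members that fell and whose E-box lay before the gene start. They were picked for the fall, so they do not show that an upstream E-box goes with it. Capitals mark CACGTG, and each is read 5′ to 3′ on the strand of the gene. Imp4 (chr1:34439688-34439733, plus strand), Ran (chr5:129020018-129020063, plus strand), Rrp7a (chr15:83122984-83123029, minus strand) and Utp18 (chr11:93885761-93885806, minus strand) fell with both scalings, and Nmd3 (chr3:69721921-69721966, plus strand) and Rexo2 (chr9:48480749-48480794, minus strand) on the deposited values.
Imp4: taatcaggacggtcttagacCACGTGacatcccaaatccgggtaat
Ran: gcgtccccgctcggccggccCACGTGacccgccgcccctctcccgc
Rrp7a: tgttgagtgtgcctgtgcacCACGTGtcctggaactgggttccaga
Utp18: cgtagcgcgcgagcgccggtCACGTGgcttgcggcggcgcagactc
Nmd3: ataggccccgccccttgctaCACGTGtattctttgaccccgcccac
Rexo2: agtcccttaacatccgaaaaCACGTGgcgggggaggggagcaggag
The first base of the motif lay at -121 in Imp4, -118 in Ran, -208 in Rrp7a, -20 in Utp18, -114 in Nmd3 and -163 in Rexo2, counted from the gene start. A match of these letters is not evidence of binding.

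Genes that act beside ribosome biogenesis had values of their own under the same fit. Of 91 tested cytosolic ribosomal protein genes 60 were lower and 1 higher (65.9% and 1.10%, against 42.6% and 17.8% of all tested genes; median -0.82). After scaling 7 were lower and 1 higher (7.69% and 1.10%, against 26.3% each; median -0.29). Of 127 tested spliceosome genes 93 were lower and 3 higher (73.2% and 2.36%; median -0.82), and after scaling 49 and 13 (38.6% and 10.2%; median -0.31). Mitochondrial ribosomal protein genes had the opposite direction, with 18 of 43 higher and 3 lower (41.9% and 6.98%; median 0.29), and 28 higher and 0 lower after scaling (65.1% higher; median 0.78). Ribosome biogenesis genes, at -0.71 and -0.22, had medians of the same sign as cytosolic ribosomal and spliceosome genes; the differences between these lists were not tested.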

How the data were processed

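The deposited table holds FPKM values that the authors converted from counts, per the series' design text. The submitters' processing notes name FastQC 0.11.9, HISAT2 2.1.0, HTSeq 0.11.2, STAR 2.7.11b, DESeq2 1.22.2 and GRCm39. Which of the 2 aligners led to the values, how shared reads were treated and whether strand was recorded is left unsaid there. Of the members, 45 share exon bases with a gene on the other strand, and without strand such reads cannot be told apart. Depth was estimated from the smallest steps of low values and GENCODE exon lengths, and entered no test.

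HDCKO and WT (3 mice each) were compared with limma-trend (limma 3.58.1, R 4.3.3) on log2(FPKM + 0.5). Each p-value sets the group difference against the spread between these mice. That spread is taken as the same in both groups and is drawn toward that of other genes, although it could differ between the groups. The 13288 genes whose mean over the 6 libraries reached 0.5 FPKM were tested. Adjustment was by Benjamini-Hochberg over all of them, on deposited values and after median-of-ratios scaling (factors 0.674 to 1.23). The fit was also run on simulated data with the same spread in both groups and few changed genes. That setting differs from these data, so it does not show how the fit performs on them. Members, roles and lists were chosen with earlier results of these data known. Genes were named by rule: the 10 largest changes each way, up to 3 per role or list with the smallest p, snoRNP core proteins, relatives in pairs, members that rose only after scaling, and polymerase I, nucleolar and Myc genes. Other genes given with values, such as Tcof1, Ppan, Nol7, Krr1, Utp6, Utp15, Imp3, Pop1, Polr2l and Rrp12, were chosen after their values were seen. Coding sequences were aligned globally. The alternatives were other pseudocounts, filters, normalizations, array weights, a replicate block and leaving out each library.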

Additional observations from a re-analysis of the deposited data

How the results depend on the processing

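The counts moved both with the scaling and with single libraries. The 42 members lower on the deposited values became 22 with median-of-ratios scaling, 27 with quantile normalization and 25 when the total FPKM left out fibre and mitochondrial genes. The 3 higher became 6, 6 and 5, and 5 with array weights, whose estimate did not reach its convergence tolerance. The median of -0.71 became -0.22, -0.29 and -0.41. Of the other pathway genes the 68 lower became 32, 38 and 34, and the 2 higher became 10, 8 and 6, and 6 with array weights. After median-of-ratios scaling, array weights gave 41 members lower and 19 higher, and 57 other pathway genes lower and 21 higher. Drosha turned from -0.01 to 0.50 with median-of-ratios scaling and to 0.44 with quantile normalization. Leaving out each library in turn gave 16 to 52 members lower on the deposited values and 10 to 25 after scaling, and 2 to 14 higher after scaling. For the other pathway genes the ranges were 15 to 86 lower and 0 to 2 higher, and after scaling 8 to 39 lower and 2 to 14 higher. Fits without a library have fewer samples; the cause of the other shifts was not tested. Other pseudocounts and no filter changed no call on the deposited values among 68 named genes.

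Replicate numbers are not said to pair mice, and same-numbered libraries deviated together with correlations of 0.12, 0.07 and 0.14, where HDCKO replicate 2 correlated best with WT replicate 1. With a replicate block 35 members were lower and 3 higher on the deposited values, 17 and 4 after scaling. Of the other pathway genes 55 were lower and 0 higher, 16 and 3 after scaling. Of the named genes 1, Sbds, lost its call on the deposited values.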

Other observations

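The rows that the rule left out had values as well. Eif6, which keeps the large subunit from joining too early, had 21.4, 26.8 and 37.9 FPKM in HDCKO and 66.6, 66.6 and 66.1 in WT, in replicate order. The groups did not overlap, and the change was -1.24 (limma adjusted p = 0.0067) on the deposited values and -0.71 (limma adjusted p = 0.0059) after median-of-ratios scaling. Snu13, a protein shared by the box C/D snoRNP and the spliceosome, had 35.9, 40.3 and 48.5 FPKM in HDCKO and 60.5, 67.1 and 67.3 in WT. It fell on the deposited values (-0.65, limma adjusted p = 0.0171) but not after scaling (-0.12, limma adjusted p = 0.447).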
